A study of Mus musculus with 12 samples.

Results

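The p53 target genes are 32 genes that the tumour suppressor p53 is known to switch on, here taken by their gene symbols from mouse Clariom S arrays of ENS primary cultures. Of these, 30 have a transcript cluster (the unit of this array, usually 1 gene) under their symbol, out of 22206 clusters tested, and none has more than 1. Bax and Gdf15 were not analysed here. The cultures came from the gut of e14.5 mouse embryos of the Sox10flox line, whose modified allele all groups share. They hold enteric neurons and glia among other cells of the gut wall, so each value is a mean over mixed cells, and fewer cells of a type cannot be told apart from less RNA per cell. 4 groups of 3 arrays from independent experiments were measured: cultures given 6-MP (6-mercaptopurine, 50 µM), untreated control cultures, cultures given LPS + 6-MP, and cultures given LPS alone. LPS is bacterial lipopolysaccharide, given for 6 h at a dose of 10 ng/ml. In the LPS + 6-MP group, 6-MP at the same dose was given 16 h before LPS. The total 6-MP time of the cultures without LPS is not stated. The question was whether 6-MP gave the response of these genes that follows DNA damage.

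6-MP is a purine analogue. Cells convert it to thioguanine nucleotides, which can be built into DNA, where mismatch repair and the checkpoint kinases ATR and ATM can react to them. These kinases stabilise p53, which binds DNA as a tetramer and switches on genes that stop the cell cycle (Cdkn1a, Ccng1, Btg2), that limit p53 itself (Mdm2, Ppm1d), that open the mitochondrial and receptor routes to cell death (Bbc3, Pmaip1, Apaf1, Eda2r, Tnfrsf10b) and that repair DNA (Xpc, Ddb2, Polk). Several of them, such as Plk2, Btg2 and Sesn1, also answer to signals other than p53.

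p53 recognises a pair of decamers, each made of 3 purines, a C, 2 A or T bases, a G and 3 pyrimidines, which reads by the same rule on both strands. The stretch from 250 bases before to 50 after each annotated gene start was searched in the RefSeq promoters of build GRCm38.p6. There 22 of the 30 measured genes have an entry (Trp53inp1, Pmaip1, Perp, Zmat3, Tnfrsf10b, Xpc, Ddb2 and Rrm2b have none). These 22 genes have 29 such stretches, so a gene can have more than 1 annotated start. A perfect decamer lay in 11 of the 22 genes (50.0%), against 9.55% of the 27025 genes with an entry. Pairs of adjoining decamers with no gap were also searched. Each decamer had to keep its C and its G, with at most 2 mismatches over the pair. Such pairs lay in 3 of the 22 genes (13.6%), against 0.392% of all genes. These are the cell cycle inhibitor Cdkn1a (1 mismatch), the cyclin G1 gene Ccng1 (1 mismatch) and Ckap2 (2 mismatches), which encodes a spindle protein. They are shown with 20 bases on each side because they carry the element in the window, and the Ei24 promoter is shown because Ei24 was called in the 6-MP comparison below and has a perfect decamer directly before its start. Capitals mark the pair of decamers in Cdkn1a, Ccng1 and Ckap2 and the single decamer in Ei24, and each sequence is written 5′ to 3′ on the strand of the gene.
Cdkn1a (chr17:29090908-29090967): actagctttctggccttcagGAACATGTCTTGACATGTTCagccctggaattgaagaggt
Ccng1 (chr11:40755442-40755501): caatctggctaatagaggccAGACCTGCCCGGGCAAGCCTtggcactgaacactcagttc
Ckap2 (chr8:22185983-22186042): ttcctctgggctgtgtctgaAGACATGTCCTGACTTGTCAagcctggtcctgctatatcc
Ei24 (chr9:36797335-36797364): ccagctgccccgtgcggcccGGGCATGCCC
The elements in capitals start 51, 195, 203 and 10 bases before the annotated start of the stretch searched, which need not be the main start of the gene. The Cdkn1a stretch has a further perfect decamer that starts 73 bases before the same annotated start and is not in capitals. A match is a description of letters and not a measured binding site.

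The values are log2 signals, so a difference of 1 is a 2-fold change, and the array medians were 7.41 to 7.53. Clusters below 5.78 are called dim here, a level under which 90% of 1452 clusters for smell, pheromone and taste receptors lay. 28 of the 30 p53 target genes lay above it on every array. Bbc3 did so on 8 and Phlda3 on 11 of the 12 arrays, so a low Bbc3 value is close to background. Of the neuronal markers 19 of 20 lay above this level on every array (Elavl4, 11.27 with 6-MP and 11.04 in controls), the exception being Chat (5.005 with 6-MP and 4.52 in controls). Of the glial markers 8 of 13 did, among them Ednrb, Fabp7 and Gfap, whereas Sox10 (5.47 with 6-MP and 5.43 in controls) was above it on 1 array and S100b (3.72 in both groups) on none. All 12 smooth muscle markers were above it on every array.

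Arrays of the same group differed in a pattern that recurred in every group. Within the groups, 43.6% and 16.9% of the variance over all clusters lay in 2 components. The first set 4 arrays apart (6-MP replicate 1, control replicate 2, LPS + 6-MP replicate 1 and LPS replicate 2), and the second was highest in 6-MP replicate 2, control replicate 1, LPS + 6-MP replicate 3 and LPS replicate 3. Several p53 target genes followed them closely. The components held 96.5% of the variance within groups of Eda2r, 94.9% of Psrc1, 91.1% of Trp53inp1 and 90.5% of Ckap2, but 6.37% of Ei24 and 0.604% of Bbc3. 8 of the 30 genes (Ccng1, Plk2, Trp53inp1, Eda2r, Tnfrsf10b, Polk, Ckap2 and Psrc1) were highest, within every group, on the arrays that are highest on the second component. The mean of the 12 smooth muscle markers, all above the dim level, was also highest on these 4 arrays (14.53, 14.47, 14.75 and 14.53) and ranged from 12.58 to 14.53 with 6-MP, 13.24 to 14.47 in controls, 12.79 to 14.75 with LPS + 6-MP and 13.04 to 14.53 with LPS. The means of the macrophage markers and of the cell cycle genes that p53 represses, both described below, were also highest on these 4 arrays. Within every group, the means of the neuronal markers, the epithelial markers and the interferon-stimulated genes were instead highest on the arrays that the first component set apart. The part of any cell type in the array differences was not tested. Every comparison was therefore fitted with limma to the 4 group means alone and again with both components as covariates, where p values take the components, computed from the same values, as known.

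**Figure D1:**
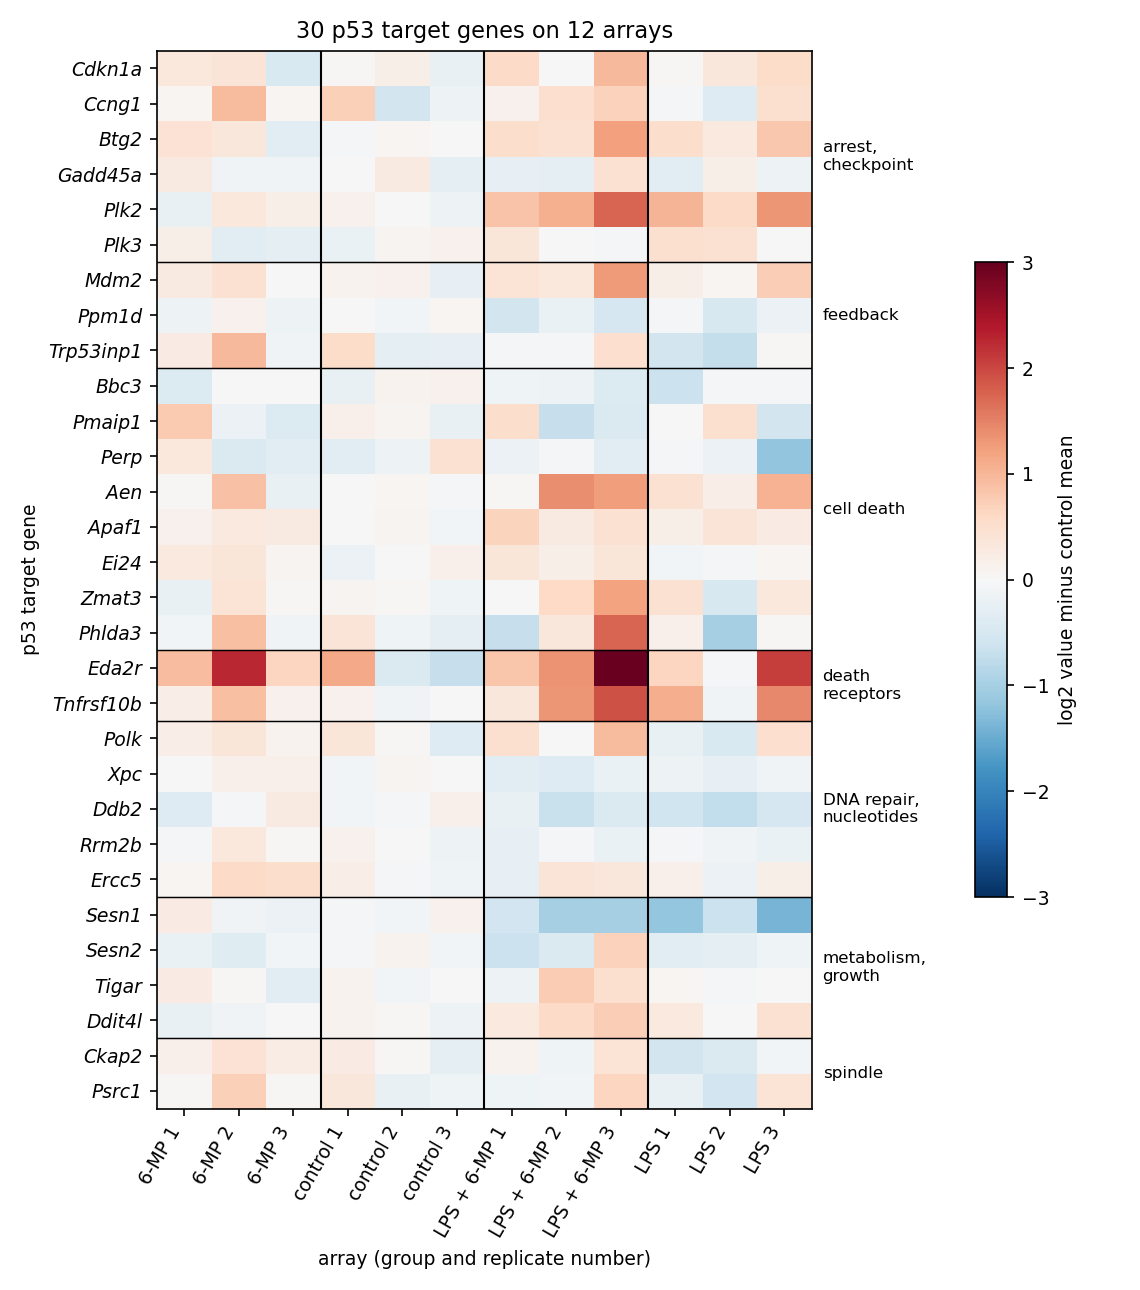
Log2 value of each measured p53 target gene (rows, grouped by role) on each of the 12 arrays (columns), as the difference from the mean of the 3 control arrays, in colour from -3 to 3. Eda2r has the strongest colours (9.53 to 11.15 with 6-MP, 8.22 to 10.02 in controls), Sesn1 is pale with 6-MP and blue with LPS, and Plk2 is red on the arrays with LPS.

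With 6-MP, the median of the p53 target genes lay slightly above that of the matching cultures without 6-MP, more so under LPS, and few genes passed a test. The median log2 change was 0.11 for 6-MP against control, where the median of all clusters was 0.01 and 21 of 30 genes were above 0. For LPS + 6-MP against LPS it was 0.26, where the median of all clusters was 0.00 and 25 of 30 genes were above 0. Leaving out 1 array at a time moved the first median from 0.04 (without 6-MP replicate 2) to 0.24 (without 6-MP replicate 3), and the second from 0.11 (without LPS + 6-MP replicate 3) to 0.35 (without LPS replicate 3). The 2 comparisons share no array, although arrays of both may come from the same experiments. 18 of the 30 genes (60%) were above 0 in both and 2 (6.67%) below 0 in both, against 29.4% and 27.3% of all clusters. With 21 and 25 of 30 genes above 0 in the single comparisons, counts near these follow from those totals and add no separate evidence. Averaged over both comparisons the median change was 0.18, with 24 of 30 genes above 0 and values from -0.17 (Plk3) to 1.05 (Eda2r).

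In the limma fit to the group means, no p53 target gene was called in 6-MP against control at an unadjusted p under 0.05, where 1.22% of all clusters were called higher and 0.905% lower. With LPS in both groups, LPS + 6-MP against LPS, 1 gene (Ckap2) was called higher and none lower, against 2.21% and 1.4% of all clusters. In the mean of both, 2 genes (Ckap2 and Ei24) were called higher and none lower, against 2.26% and 1.55% of all clusters. The 2 of 30 genes are 6.67%, and 1 gene more or less moves this share by 3.33%. After Benjamini-Hochberg adjustment over all clusters, the share called was 0% in each of these 3 comparisons.

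With the 2 components as covariates more p53 target genes were called, and in the 6-MP comparisons each of them was higher with 6-MP. In 6-MP against control 3 genes were called higher (Eda2r, Trp53inp1 and Ercc5) and none lower, against 2.44% and 2.35% of all clusters. For LPS + 6-MP against LPS 7 were called higher (Eda2r, Ckap2, Trp53inp1, Polk, Zmat3, Phlda3 and Ccng1) and none lower, against 4.22% and 4.41%. In the mean of both comparisons 11 of 30 genes (36.7%) were called higher and none lower, against 4.35% and 4.41% of all clusters. These were Eda2r, Trp53inp1, Ckap2, Ccng1, Polk, Ei24, Psrc1, Tnfrsf10b, Phlda3, Ercc5 and Mdm2. The estimated changes are the same in both fits, and only their SE differs. The median SE went from 0.181 to 0.128 for the 30 genes and from 0.165 to 0.134 for all clusters. The share of all clusters is thus not a like background. Several of the 11 genes also moved together over the arrays, so their calls are not 11 separate results. At an adjusted p under 0.05, 0.0766% of all clusters were called, among them 1 p53 target gene, Eda2r. Leaving out 1 array at a time, with the components taken anew, left 5 to 14 genes called higher, with the count of 5 without 6-MP replicate 2, control replicate 3, LPS + 6-MP replicate 3 or LPS replicate 2, and 14 without LPS + 6-MP replicate 1. Over these leave-out fits 3.65% to 5.06% of all clusters were called higher. With 1 component in place of 2, 4 genes were called higher, against 3.5% of all clusters.

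**Figure D2:**
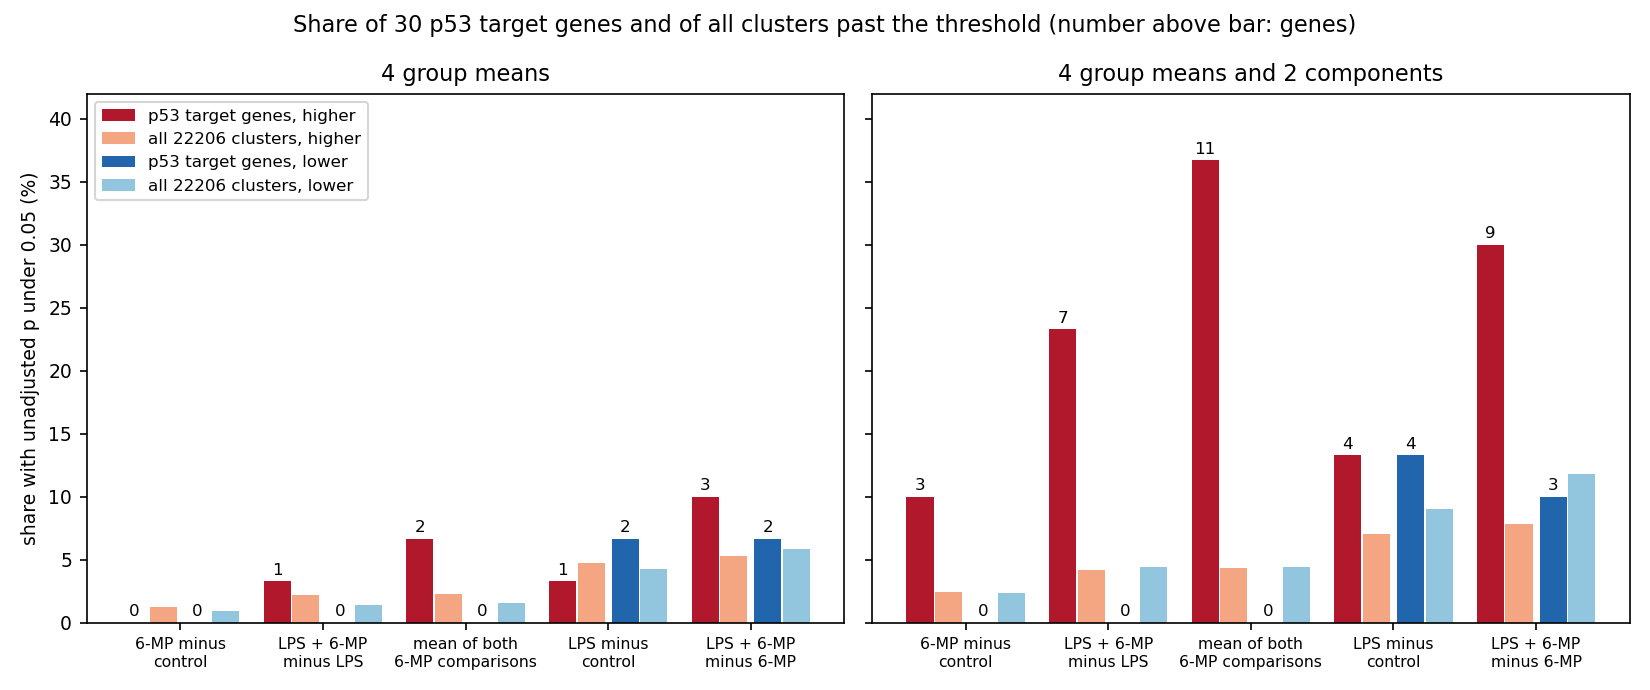
Share of the 30 p53 target genes (dark bars, with the number of genes above) and of all 22206 clusters (light bars) at an unadjusted p under 0.05, in percent, for 5 comparisons, with red for higher and blue for lower. In the fit to group means (left) the 6-MP comparisons call 0, 1 and 2 genes higher, and with 2 components (right) 3, 7 and 11.

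Of the 30 genes, the death receptor gene Eda2r had the largest estimated change with 6-MP, with wide overlap of the arrays. Eda2r encodes the ectodysplasin A2 receptor of the TNF receptor family, which can signal to NF-κB, JNK and cell death. It had log2 values of 9.81, 11.15 and 9.53 with 6-MP, against 10.02, 8.45 and 8.22 in controls. With LPS it had 9.74, 10.24 and 11.87 with LPS + 6-MP, against 9.55, 8.84 and 10.97 with LPS alone. The groups overlapped in both comparisons, and the highest array of each group was among the 4 named above as highest on the second component. The change was 1.27 (SE 0.68, 2.41-fold) without LPS and 0.83 (SE 0.68, 1.78-fold) with LPS. Averaged, Eda2r was 2.07-fold higher (log2 1.05, SE 0.48), with a 95% interval from 0.00 to 2.10, and was not called in the fit to group means (limma adjusted p = 1.00). With the 2 components the SE was 0.13 and limma gave adjusted p = 0.0125. That adjusted p ranged from 0.00702 to 0.174 when each array was left out in turn, and was under 0.05 in 7 of the 12 fits. With 1 component it was 0.650. The other receptor, Tnfrsf10b, the mouse receptor for the death ligand TRAIL, averaged 10.41 ± 0.43 with 6-MP and 9.99 ± 0.12 in controls (SD, n = 3 each). It averaged 11.19 ± 0.79 with LPS + 6-MP and 10.80 ± 0.81 with LPS. Its mean change was 0.40 (SE 0.30), called only with the components (limma adjusted p = 0.512).

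**Figure D3:**
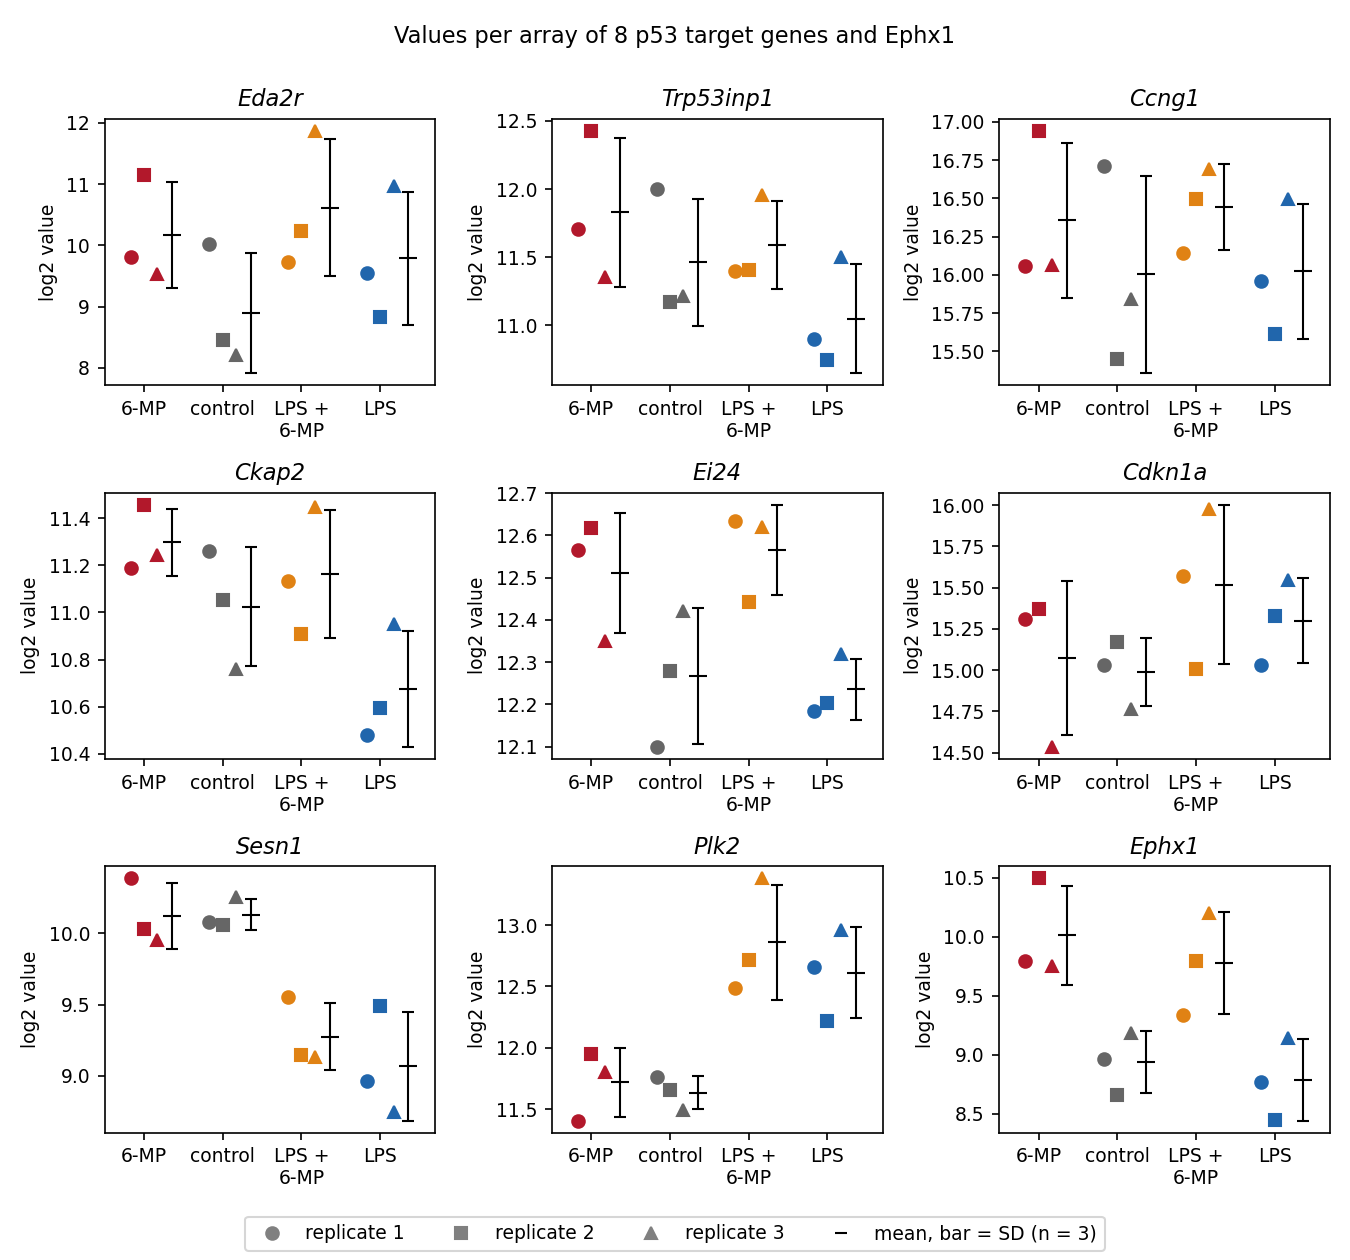
Log2 values of 8 p53 target genes and of Ephx1 (a further target of p53 described below) on each array, by group, with the replicate number as the symbol and the mean and SD (n = 3) as a bar. The 6-MP values of Eda2r (9.53 to 11.15) overlap those of controls (8.22 to 10.02), and the Ephx1 values (9.75 to 10.49 with 6-MP, 8.66 to 9.18 in controls) do not.

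Among the genes of cell cycle arrest, Cdkn1a, the cyclin-dependent kinase inhibitor p21 and the textbook marker of active p53, was not called higher with 6-MP. It had 15.31, 15.37 and 14.54 with 6-MP, against 15.03, 15.17 and 14.77 in controls. Under LPS it had 15.57, 15.01 and 15.97 with LPS + 6-MP, against 15.03, 15.33 and 15.55 with LPS. The groups overlapped in both comparisons. The mean change was 0.15 (SE 0.20), with a 95% interval from -0.28 to 0.58, and it was called in neither fit.

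Ccng1, cyclin G1, a p53 target that recruits phosphatase 2A to Mdm2, had 16.06, 16.94 and 16.07 with 6-MP, against 16.71, 15.45 and 15.84 in controls. It had 16.14, 16.50 and 16.69 with LPS + 6-MP, against 15.96, 15.61 and 16.49 with LPS. The groups overlapped. The mean change was 0.39 (SE 0.25), and Ccng1 was called only with the components (limma adjusted p = 0.443). The other arrest genes (Btg2, Gadd45a, Plk2 and Plk3) differed with 6-MP by -0.17 to 0.18 on average, and none was called in either fit.

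Of the feedback genes, Mdm2, the ubiquitin ligase that degrades p53, had 13.25, 13.43 and 12.97 with 6-MP, against 13.09, 13.10 and 12.73 in controls. It had 13.38, 13.30 and 14.25 with LPS + 6-MP, against 13.16, 13.03 and 13.71 with LPS. Each 6-MP group overlapped its counterpart without the drug. The mean change was 0.29 (SE 0.19), called only with the components (limma adjusted p = 0.552). Trp53inp1, a stress protein that p53 induces and that promotes p53 activity, averaged 11.83 ± 0.55 with 6-MP and 11.46 ± 0.47 in controls, and 11.59 ± 0.32 with LPS + 6-MP and 11.05 ± 0.40 with LPS (SD, n = 3 each). Its mean change was 0.45 (SE 0.23), called only with the components (limma adjusted p = 0.268). Ppm1d, the phosphatase that dephosphorylates p53 and its kinases, was not called (-0.12, SE 0.12).

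Of the 8 measured genes of cell death, Ei24, an endoplasmic reticulum protein first found as an etoposide-induced transcript, was called higher. It had 12.57, 12.62 and 12.35 with 6-MP, against 12.10, 12.28 and 12.42 in controls. It had 12.63, 12.44 and 12.62 with LPS + 6-MP, against 12.18, 12.20 and 12.32 with LPS, and here the groups did not overlap. The mean change was small, 0.29 (SE 0.11, 1.22-fold), called at an unadjusted limma p under 0.05 in both fits, with an SE of 0.11 in each (adjusted p = 1.00 and, with the components, 0.479). Without 6-MP replicate 2 or control replicate 1 the call was lost (0.26 and 0.25). Ei24 was among the genes whose spread did not follow the components.

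Bbc3 (Puma) and Pmaip1 (Noxa) encode the BH3-only proteins through which p53 opens the mitochondrial route. Bbc3 had 5.53, 5.97 and 5.94 with 6-MP, against 5.72, 6.05 and 6.06 in controls, and 5.81, 5.80 and 5.54 with LPS + 6-MP, against 5.29, 5.88 and 5.92 with LPS. Pmaip1 had 9.26, 8.31 and 8.06 with 6-MP, against 8.63, 8.56 and 8.25 in controls, and 9.003, 7.80 and 8.05 with LPS + 6-MP, against 8.46, 8.96 and 7.92 with LPS. Neither was called in either fit, and the mean change was -0.06 (SE 0.15) for Bbc3 and -0.05 (SE 0.26) for Pmaip1. Pmaip1 was highest within 3 of the groups on arrays that the first component set apart, namely 6-MP replicate 1, LPS + 6-MP replicate 1 and LPS replicate 2.

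Phlda3, an inhibitor of the kinase Akt, had 6.64, 7.63 and 6.60 with 6-MP, against 7.10, 6.60 and 6.45 in controls, and 6.03, 7.06 and 8.45 with LPS + 6-MP, against 6.86, 5.72 and 6.74 with LPS. Within the LPS + 6-MP group its arrays lay further apart than any means of the groups. Its mean change was 0.49 (SE 0.37), called only with the components (limma adjusted p = 0.512). Apaf1, the core of the apoptosome, lay higher on each 6-MP array (10.89, 11.04 and 11.02) than on any control array (10.73, 10.84 and 10.68), but the groups overlapped under LPS (11.42, 11.02 and 11.22 with LPS + 6-MP, against 10.93, 11.14 and 11.004 with LPS), and its mean change of 0.21 (SE 0.11) was called in neither fit. Zmat3, an RNA-binding protein, Aen, a nuclease, and Perp, a membrane protein of desmosomes, had mean changes of 0.29, 0.28 and 0.07 and were not called in the mean comparison by either fit.

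The genes of DNA repair did not move together. Polk, a DNA polymerase that copies past damaged bases, averaged 9.85 ± 0.13 with 6-MP and 9.64 ± 0.38 in controls, and 10.11 ± 0.46 with LPS + 6-MP and 9.58 ± 0.51 with LPS (SD, n = 3 each). Its mean change was 0.37 (SE 0.21), called only with the components (limma adjusted p = 0.444). Ercc5, an endonuclease of nucleotide excision repair, averaged 12.09 ± 0.28 with 6-MP and 11.70 ± 0.18 in controls, and 11.86 ± 0.36 with LPS + 6-MP and 11.75 ± 0.19 with LPS. Its mean change was 0.25 (SE 0.15), called only with the components (limma adjusted p = 0.540). The damage recognition genes Xpc (-0.02, SE 0.10) and Ddb2 (0.05, SE 0.14) and the ribonucleotide reductase subunit Rrm2b (0.03, SE 0.11) were not called in either fit, and their 95% intervals ran from -0.24 at the lowest (both Xpc and Ddb2) to 0.35 at the highest (Ddb2).

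The mitotic genes gave the other call of the fit to group means. Ckap2, a spindle-associated protein, had 11.19, 11.46 and 11.25 with 6-MP, against 11.26, 11.05 and 10.76 in controls. It had 11.13, 10.91 and 11.45 with LPS + 6-MP, against 10.48, 10.60 and 10.95 with LPS. The ranges overlapped without LPS and, through LPS + 6-MP replicate 2 and LPS replicate 3, with LPS. Ckap2 was 1.40-fold higher in LPS + 6-MP against LPS (log2 0.49, SE 0.20, limma adjusted p = 1.00), and 1.30-fold higher in the mean of both (0.38, SE 0.14, limma adjusted p = 1.00 and, with the components, 0.278). The call in the mean was lost without 6-MP replicate 2, control replicate 3, LPS + 6-MP replicate 3 or LPS replicate 1 (0.31 to 0.34). Ckap2 transcripts also rise in dividing cells, and the part of cell division in this change was not tested. Psrc1, another spindle protein, differed by 0.26 (SE 0.22) on average, called only with the components (limma adjusted p = 0.489).

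No gene of metabolism and growth control was called with 6-MP. Sesn1 and Sesn2, the sestrins that restrain mTORC1 under stress, differed by 0.10 (SE 0.15) and -0.06 (SE 0.20) on average. Sesn2 lay lower on each 6-MP array (6.44, 6.27 and 6.55) than on any control array (6.60, 6.76 and 6.56), and overlapped under LPS (6.01, 6.20 and 7.32 with LPS + 6-MP, against 6.32, 6.38 and 6.51 with LPS). Tigar, a fructose bisphosphatase, differed by 0.17 (SE 0.16) and Ddit4l, an inhibitor of mTOR signalling, by 0.08 (SE 0.13). None of the 4 was called in either fit of the mean. The interaction of LPS and 6-MP, which tests whether the drug's effect differed with and without LPS, called none of the 30 genes at an unadjusted p under 0.05 (1.95% of all clusters). Ddit4l had the smallest p (0.38, SE 0.25, limma adjusted p = 1.00).

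**Figure D4:**
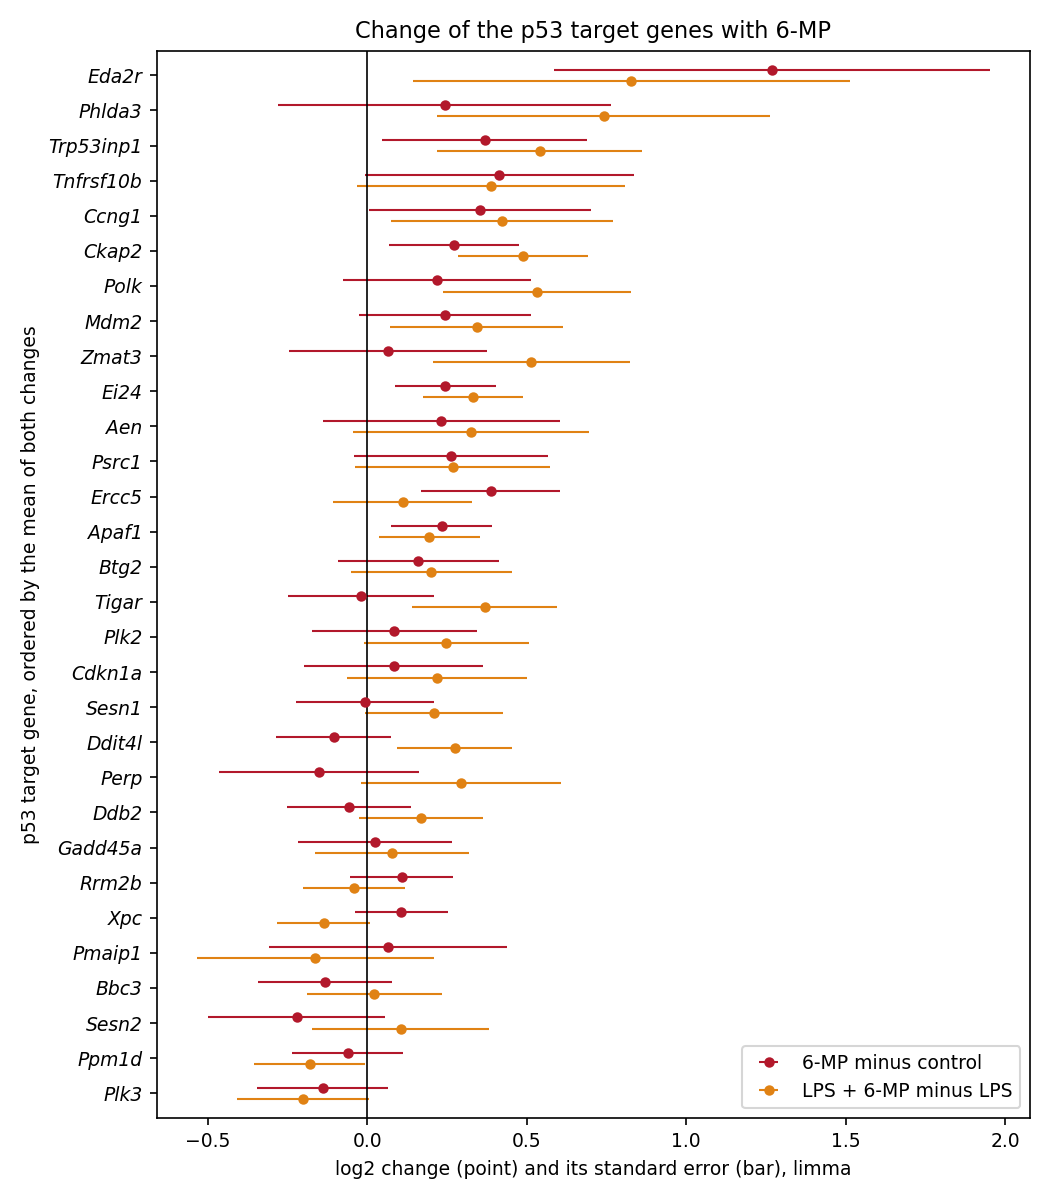
Log2 change of each measured p53 target gene (rows, ordered by the mean of both changes) in 6-MP minus control (red) and in LPS + 6-MP minus LPS (orange), with the limma standard error as a bar. Eda2r has the largest changes (1.27 and 0.83), 21 and 25 of the 30 points lie above 0, and most bars cross or come close to 0.

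Other genes of the pathway were taken from lists of known members. Their counts, and those of the marker lists below, are to be read against the shares of all clusters. In the mean of both 6-MP comparisons 2.26% of all clusters were called higher and 1.55% lower. With the components these shares were 4.35% and 4.41%. Of 32 measured further targets of p53, 2 were called higher and none lower in the mean of both 6-MP comparisons (4 and 1 with the components), with a median change of -0.01. Ephx1, the microsomal epoxide hydrolase that detoxifies reactive epoxides, had 9.79, 10.49 and 9.75 with 6-MP, against 8.97, 8.66 and 9.18 in controls. It had 9.34, 9.80 and 10.20 with LPS + 6-MP, against 8.77, 8.45 and 9.14 with LPS. In both comparisons each array with 6-MP lay above each array without it. Ephx1 was picked after its values were seen, and the share of all clusters that separate in this way was not counted. The mean change was 1.03 (SE 0.20, 2.05-fold), with limma adjusted p = 0.713 and, with the components, adjusted p = 0.0125.

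Rprm, Reprimo, which halts cells before mitosis, was also called higher. It averaged 8.36 ± 0.07 with 6-MP and 7.79 ± 0.34 in controls, and 8.23 ± 0.07 with LPS + 6-MP and 7.88 ± 0.16 with LPS (SD, n = 3 each). These groups did not overlap either, and the mean change was 0.46 (SE 0.13, limma adjusted p = 1.00 and, with the components, 0.320). Zfp365, which takes part in replication fork recovery (0.40, SE 0.19), and Trp53i11 (-0.27, SE 0.13) were the next by p and were called only with the components. In LPS + 6-MP against LPS alone, Dram1, a regulator of autophagy, was called lower (-0.68).

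The genes upstream of p53 target genes gave no calls in the fit to group means. None of the 11 measured genes of p53 regulators (Trp53 itself was not analysed here) and none of the 16 damage sensors and kinases passed an unadjusted p under 0.05 in either 6-MP comparison or in their mean. The lowest p values in the mean of both belonged to the acetyltransferase gene Kat5 (-0.20, SE 0.12), Brca1 (-0.24, SE 0.15) and Prkdc (-0.25, SE 0.16), the catalytic subunit of DNA-PK. Of the 16 damage sensors and kinases 14 were below 0 in the mean of both (median -0.09), 11 in 6-MP against control (median -0.05) and 15 in LPS + 6-MP against LPS (median -0.20). With the components, 3 of them (Prkdc, Rad9a and Chek1) were called lower in the mean, and Kat5 among the p53 regulators was called lower in LPS + 6-MP against LPS. None of the 6 measured mismatch repair genes was called in either fit in these comparisons, the lowest p belonging to Pms1 (-0.15, SE 0.11).

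Among 16 measured cell cycle genes that p53 represses through p21 and the DREAM complex, 3 were called lower and 1 higher in the mean of both 6-MP comparisons, with a median change of -0.18 (5 lower and 1 higher with the components). The mitotic activator Cdc20 changed by -0.40 (SE 0.15), the mitotic kinase Cdk1 by -0.37 (SE 0.14) and the transcription factor Mybl2 by -0.36 (SE 0.14). The mitotic cyclin Ccnb2 went the other way (0.34, SE 0.14). No limma adjusted p was under 0.05 in either fit. The mean of this list ranged from 10.34 to 10.82 with 6-MP and 10.48 to 11.01 in controls, and from 9.79 to 10.37 with LPS + 6-MP and 10.19 to 10.49 with LPS, so the groups overlapped.

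The ATF4 response, a stress programme that shares some targets with p53, had no gene called higher with 6-MP. Of its 15 genes none was called higher and 2 lower in the mean of both comparisons (4 lower with the components), Shmt2 (-0.35, SE 0.14) of serine metabolism and the asparagine synthetase Asns (-0.30, SE 0.14), with a median of -0.22 and 1 gene above 0. None of 19 immediate early genes was called in the 6-MP comparisons by either fit, the lowest p belonging to Egr1 (0.42, SE 0.25). In the mean of both 6-MP comparisons the neuronal markers had a median of -0.18, with 2 of 20 called lower (Vip, -0.80, and Nefm, -0.38), the glial markers -0.04 (1 of 13 lower, Fabp7, -0.81), smooth muscle -0.17 (none of 12), macrophages -0.18 (none of 14) and epithelium -0.15 (none of 20). None of these markers was called higher in this fit of the mean. The comparisons differed in this: the neuronal median was 0.02 in 6-MP against control and -0.30 in LPS + 6-MP against LPS (17 of 20 below 0), the glial 0.01 and -0.21, the smooth muscle -0.24 and -0.04, the macrophage -0.29 and -0.07, and the epithelial -0.09 and -0.16 (18 of 20 below 0 in LPS + 6-MP against LPS). In the mean with the components 3 neuronal, 1 glial, 5 smooth muscle, 3 macrophage and 1 epithelial marker were called lower and 1 smooth muscle marker higher. The part of such differences in the changes above was not tested. Reference genes had a median of 0.00 and interferon-stimulated genes of 0.05.

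With LPS single p53 target genes were called in both directions. The median change of the 30 genes was -0.03 for LPS against control, with 14 above 0, where the median of all clusters was -0.04. It was 0.09 for LPS + 6-MP against 6-MP, with 17 above 0, where that of all clusters was -0.03. Together these comparisons use the same 12 arrays as the 6-MP comparisons do. In LPS against control 1 gene was called higher and 2 lower at an unadjusted p under 0.05, against 4.76% and 4.25% of all clusters. For LPS + 6-MP against 6-MP 3 were called higher and 2 lower, against 5.29% and 5.88%. These counts are 3.33% to 10% of the 30 genes and rest on 1 to 3 genes each. At an adjusted p under 0.05, 1.64% of all clusters were higher and 0.162% lower in LPS against control, with 1 p53 target gene, Sesn1, among the lower. For LPS + 6-MP against 6-MP these shares were 1.4% and 0.239%, with no p53 target gene among them. Of the interferon-stimulated genes, which LPS is known to induce, 26 of 26 were called higher with LPS, with a median of 3.25.

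Sesn1 fell with LPS. It had 8.97, 9.49 and 8.74 with LPS, against 10.08, 10.06 and 10.25 in controls. After 6-MP it had 9.55, 9.14 and 9.13 with LPS + 6-MP, against 10.39, 10.03 and 9.95 with 6-MP alone. No array with LPS reached the lowest array without it. The change was -1.07 (SE 0.22, 2.09-fold lower, limma adjusted p = 0.0238, and 0.00209 with the components) and, after 6-MP, -0.85 (SE 0.22, limma adjusted p = 0.0917, and 0.0110 with the components). Without 1 of the compared arrays in turn, the adjusted p of LPS against control ranged from 0.00977 to 0.130, and was under 0.05 only without LPS replicate 2. It was 0.0680 in a fit to the compared groups only and 0.663 in a test with unequal spread.

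Plk2, a polo-like kinase that p53 and growth factor signals induce, was the only p53 target gene called higher in LPS against control in the fit to group means. It had 12.66, 12.22 and 12.96 with LPS, against 11.76, 11.65 and 11.50 in controls, and 12.49, 12.71 and 13.38 with LPS + 6-MP, against 11.41, 11.95 and 11.80 with 6-MP. The groups did not overlap. The change was 0.98 (SE 0.26, 1.97-fold, limma adjusted p = 0.110) and, after 6-MP, 1.14 (SE 0.26, 2.20-fold, adjusted p = 0.0501), and with the components the adjusted p were 0.00365 and 0.00133.

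Ddb2 was lower in LPS against control (7.03 ± 0.11 with LPS and 7.64 ± 0.12 in controls, SD, n = 3 each), by -0.61 (SE 0.19, limma adjusted p = 0.236). After 6-MP, in LPS + 6-MP against 6-MP, Ddit4l (0.64, SE 0.18) and the antiproliferative gene Btg2 (0.58, SE 0.25) were called higher and Xpc (-0.41, SE 0.15) lower, with limma adjusted p of 0.143, 0.413 and 0.282. With the 2 components LPS against control called 4 genes higher (Plk2, Btg2, Tnfrsf10b and Eda2r) and 4 lower (Sesn1, Ddb2, Ckap2 and Trp53inp1), against 7.03% and 9.01% of all clusters. At an adjusted p under 0.05 these were Plk2 and Eda2r (2.95% of all clusters higher) and Sesn1 (1.36% lower). LPS + 6-MP against 6-MP called 9 higher (30%), against 7.8% of all clusters. These were Plk2, Ddit4l, Tnfrsf10b, Zmat3, Btg2, Cdkn1a, Aen, Eda2r and Mdm2, with limma adjusted p of 0.189 for Cdkn1a and 0.220 for Mdm2. It called 3 lower (Sesn1, Xpc and Ppm1d), against 11.8% of all clusters. At the adjusted threshold these were Plk2 and Ddit4l (2.86% higher) and Sesn1 (2.4% lower).

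Eda2r was thus called with the components both for 6-MP and for LPS against control. Its difference with LPS was 0.89 (SE 0.68, limma adjusted p = 0.824 and, with the components, 0.0147), and the groups overlapped.

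The counts of the other lists with LPS, here and below, are to be read against 4.76% of all clusters called higher and 4.25% lower. Of the further targets of p53, 4 of 32 were called higher with LPS and none lower, 2 of them, Fas and Dram1, at the adjusted threshold. The changes of these 2 were larger than any of the 30 genes in LPS against control. The death receptor gene Fas had 10.85, 10.68 and 10.71 with LPS, against 7.75, 8.28 and 7.75 in controls, a change of 2.82 (SE 0.24, 7.07-fold, limma adjusted p = 4.07e-05). The autophagy regulator Dram1 had 10.34, 9.44 and 10.52 with LPS, against 7.78, 7.94 and 7.55 in controls, a change of 2.35 (SE 0.26, limma adjusted p = 0.000362). Both genes are known to answer to inflammatory signals as well. With 6-MP, Fas changed by -0.25 (SE 0.24) without LPS and 0.02 (SE 0.24) with it.

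Of the damage sensors and kinases 3 of 16 were called lower with LPS and none higher: Chek2 (-0.86, SE 0.25), Brca1 (-0.53, SE 0.21) and Prkdc (-0.50, SE 0.22), none at the adjusted threshold. 2 of the 16 p53-repressed cell cycle genes were called lower and none higher, Aurkb (-0.70, SE 0.24) and Ccnb2 (-0.50, SE 0.19), and all 16 were below 0. Of 6 mismatch repair genes 1 was called lower (Pms1, -0.45, SE 0.16), and of 11 p53 regulators none was called. 8 of 19 immediate early genes were called higher and none lower, led by Zfp36 (1.31, SE 0.30) and Ier3 (1.92, SE 0.46), and of the ATF4 response 1 of 15, the cystine transporter gene Slc7a11 (2.99, SE 0.39), was. The marker lists moved too with LPS: 3 of 14 macrophage markers were called higher and 7 lower, and 2 of 13 glial and 3 of 20 epithelial markers were called lower. Their part in the LPS changes of the p53 target genes was not tested.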

How the data were processed

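Total RNA was labelled and hybridised to 12 Clariom S arrays. The values on the log2 scale were made by the authors in the Transcriptome Analysis Console, and each array has its own column with 1 value per cluster. Normalization, summarisation and genome build are not given in the sources used here, and the values were not transformed further. The table has 28846 entries, of which 6640 are controls of the array and were dropped, and no filter on low values was set. Groups and replicate numbers came from the labels. The p53 target genes, the gene lists, the tests and the naming rule were chosen with earlier results of these data known.

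Limma 3.58.1 in R 4.3.3 was fitted to the 4 group means (8 residual and 4.25 prior degrees of freedom), with Benjamini-Hochberg adjustment over all 22206 clusters, and again with 2 components of the residuals as covariates (6 residual degrees of freedom). An exact permutation test of 3 against 3 arrays has 0.1 as its smallest p, so the p values are those of limma. Array values are given for Cdkn1a, Mdm2, Ccng1, Bbc3, Pmaip1, Phlda3 and Eda2r. They are also given for p53 target genes called in the fit to group means with 6-MP or, past the adjusted threshold, with LPS. Of each other list, genes with the smallest p are named. Plk2, Apaf1, Sesn2, Ephx1, Fas, Dram1 and the markers Vip, Nefm and Fabp7 were chosen for their values after these were seen. For no comparison was the share of all clusters without overlap of the groups counted, so no separation of arrays is set against it. The scripts were tested on simulated data. As alternatives, the fit was repeated with each pair of groups alone, a block by replicate number, a prior that follows intensity, arrays centred on their median or quantile normalized, bright clusters only, clusters with 1 symbol only, unequal spread, the components and other thresholds, and without single arrays or the 4 arrays set apart by the first component. The number of arrays limits the precision.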

Additional observations from a re-analysis of the deposited data

How the results depend on the processing

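No called change turned round under any alternative. The median changes of the 30 genes moved by less than the spread between replicates. Without single arrays they ranged from 0.04 to 0.24 in 6-MP against control, 0.11 to 0.35 in LPS + 6-MP against LPS and 0.14 to 0.25 in the mean of both, and under any alternative they crossed 0 in LPS against control (-0.10 to 0.09), LPS + 6-MP against 6-MP (-0.02 to 0.19) and the interaction (-0.08 to 0.27). In 6-MP against control, 0 genes were called higher, and 1 in a fit to the compared groups only, with unequal spread or without the 4 arrays that stand apart, 3 with 2 components, and 0 to 1 without single arrays (1 without 6-MP replicate 1 or control replicate 1). In LPS + 6-MP against LPS, 1 was called higher, and 0 in the compared groups only, with the replicate block, at an adjusted p under 0.05 or with a fold of 2, 2 with an intensity trend, median centring or quantile normalization, 7 with 2 components, and 0 to 4 without single arrays (4 without LPS + 6-MP replicate 1, 0 without LPS + 6-MP replicate 3, LPS replicate 1 or LPS replicate 2). In the mean of both, 2 were called higher, and 4 with quantile normalization, 11 with 2 components, 1 without the 4 arrays, 0 at the adjusted threshold or with a fold of 2, and 0 to 8 without single arrays (0 without 6-MP replicate 2, 8 without LPS + 6-MP replicate 1), while 0 to 1 were lower. The 11 genes became 4 with 1 component (3.5% of all clusters called higher), 11 with 3 (4.86%), and 5 to 14 without single arrays (3.65% to 5.06%). These settings were chosen after seeing the data. In LPS against control, 1 was called higher, and 3 in the compared groups only or without the 4 arrays, 2 with centring, quantile normalization or unequal spread, 4 with 2 components, 0 at the adjusted threshold or with a fold of 2, and 1 to 3 without single arrays (3 without LPS replicate 2), while 2 were lower, and 4 with 2 components and 1 at the adjusted threshold or with a fold of 2. In LPS + 6-MP against 6-MP, 3 were called higher, and 9 with 2 components, 7 without the 4 arrays, 0 at the adjusted threshold, 1 with a fold of 2, and 2 to 7 without single arrays (7 without LPS + 6-MP replicate 1), while 2 were lower, and 0 at the adjusted threshold or with a fold of 2. The interaction called 0, and 1 without the 4 arrays, 1 with unequal spread, and 0 to 1 without single arrays. Except with the components and at the adjusted threshold, shares of all clusters were not taken under the alternatives. Those counts describe how the calls moved and are not set against a share. The cause of these moves was not tested.

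Replicate numbers shared between groups did not pair the arrays: same-numbered arrays had correlations of their deviations from -0.45 to 0.60, 6 of 18 above 0.1, and only 8 of 36 closest arrays in another group shared the number (correlations with the closest of 0.27 to 0.65). The closest arrays instead formed 3 sets with an array of each group, namely 6-MP 1, control 2, LPS + 6-MP 1 and LPS 2, then 6-MP 2, control 1, LPS + 6-MP 3 and LPS 3, then 6-MP 3, control 3, LPS + 6-MP 2 and LPS 1. The labels do not give these sets, so no differences within them were taken directly. The 2 components nevertheless follow them. The first set scores 0.29 to 0.50 on the first component. On the second component the second set scores 0.33 to 0.40 and the third set -0.40 to -0.28. The fit with both components is therefore close to a comparison within these sets. Whether the sets are the independent experiments was not tested. With the numbers as a block, the 6-MP calls were 0 without LPS, 0 with LPS and 2 in the mean. No gene has several clusters, so the choice of row changed nothing. Without the 4 arrays, Ei24 and Ckap2 lost their calls in the mean of both comparisons (0.25 and 0.40).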
